A study of Drosophila melanogaster with 46 samples.

Results

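The insulin-like peptides of *Drosophila*, with their receptor and its adaptor, were taken by name, as the rows whose symbol was Ilp1 to Ilp8, InR or chico. These genes were chosen with earlier results of these data known. Of these 10 genes, 9 had a row among the 17490 rows of the expression table. No row carried the symbol InR, so the insulin receptor was not analysed here. RNA-seq libraries were compared from whole CNS dissected from larvae of the third instar, of the w1118 strain, called wild type here, and of Tet CD, with 4 libraries in each group out of 46 samples in the series. Tet CD is a knock-in allele, carried in a GFP-tagged strain, whose double point mutation lies in the iron binding motif that the TET enzyme needs to oxidise its substrates. The comparison concerns the loss of TET catalytic activity in the larval CNS. The series holds no RNA-seq library of a GFP-tagged strain with intact TET. Loss of the activity, the tag and the strain background therefore cannot be told apart here. Each library was made from RNA of pooled brains, and nothing in the labels says whether the pools of a group came from separate crosses, so p-values measure the spread between these libraries.

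Insulin-like peptides are small secreted hormones that bind the insulin receptor, a tyrosine kinase. The adaptor Chico, the fly insulin receptor substrate, passes the signal to PI3 kinase, Akt and the transcription factor FOXO, which sets growth and sugar metabolism to the supply of food. In the larval brain a small cluster of median neurosecretory neurons, the insulin-producing cells, makes Ilp1, Ilp2, Ilp3 and Ilp5 and releases them into the circulation. Ilp6 is made in fat body and in surface glia, Ilp7 in a few neurons of the ventral nerve cord, and Ilp8, a relaxin-like peptide, in damaged or growing imaginal discs. Ilp4 is known from the embryo. In a bulk CNS sample, fewer insulin-producing cells and less RNA per cell cannot be told apart.

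Ilp1 to Ilp5 form a cluster of 25.5 kb on chromosome 3L (dm6), and Ilp1 to Ilp4 of it lie within 5.84 kb. Ilp1 (FBgn0044051, 3L 9798420 to 9799050) and Ilp2 (FBgn0036046, 3L 9799698 to 9800440) are on the plus strand with 647 bases between them. Ilp3 (FBgn0044050, 3L 9801298 to 9802120), Ilp4 (FBgn0044049, 3L 9803399 to 9804263) and Ilp5 (FBgn0044048, 3L 9823349 to 9823897) are on the minus strand, Ilp5 lying 19.1 kb beyond Ilp4. The 4 genes that the insulin-producing cells express are shown with the 200 bases before their annotated start, because they are neighbours, made in the same cells, whose values in the libraries below were unlike. The sequences were read on the gene's strand from the NCBI RefSeq genome of the dm6 assembly. Capitals mark the motif TATAA, the letters of a TATA box, and GAGAG, a repeat bound by GAGA factor. GTAAACA, the core that FOXO binds, was searched as well, all 3 on both strands.
Ilp1: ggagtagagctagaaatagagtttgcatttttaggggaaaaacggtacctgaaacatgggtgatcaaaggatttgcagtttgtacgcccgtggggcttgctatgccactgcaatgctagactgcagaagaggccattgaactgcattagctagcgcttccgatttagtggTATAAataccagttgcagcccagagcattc
Ilp2: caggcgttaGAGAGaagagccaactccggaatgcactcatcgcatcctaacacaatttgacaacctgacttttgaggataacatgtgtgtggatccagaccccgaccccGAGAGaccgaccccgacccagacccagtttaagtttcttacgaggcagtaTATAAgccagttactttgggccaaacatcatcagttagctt
Ilp3: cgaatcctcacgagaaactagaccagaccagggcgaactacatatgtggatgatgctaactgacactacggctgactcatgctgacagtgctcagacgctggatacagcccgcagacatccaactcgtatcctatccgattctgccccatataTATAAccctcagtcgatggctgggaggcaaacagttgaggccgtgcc
Ilp5: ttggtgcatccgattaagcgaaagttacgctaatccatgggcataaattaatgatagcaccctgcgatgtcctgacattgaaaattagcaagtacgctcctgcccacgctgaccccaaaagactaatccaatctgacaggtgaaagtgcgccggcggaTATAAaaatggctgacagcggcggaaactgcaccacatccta
The windows are 3L 9798220 to 9798419 for Ilp1, 9799498 to 9799697 for Ilp2, 9802121 to 9802320 for Ilp3 and 9823898 to 9824097 for Ilp5. TATAA occurred once in each of the 4 windows, its first base 30, 41, 47 and 42 bases before the start of Ilp1, Ilp2, Ilp3 and Ilp5. It was found in 54.7% of the 13968 windows of protein-coding genes searched. GAGAG occurred only in the Ilp2 window, at 191 and at 91 bases before the start, and in 22.1% of all windows. GTAAACA, present in 5.58% of all windows, was in none of the 4. A match of letters is a description of the sequence and does not show a bound factor.

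The values are RPKM (reads on a gene divided by its exon length and by the reads of the library), computed by the authors. The 8 libraries held 17500000 to 32600000 reads by the steps between their low values. Tet, whose point mutation need not change its RNA level and so cannot check the labels, was at 82.6 ± 5.07 RPKM (SD, n = 4) in wild type and 55.2 ± 25.5 in Tet CD, with an adjusted p of 0.153 (limma). Some libraries stood apart. In Tet CD replicates 2 and 3 the summed neuronal markers (elav, nSyb, brp, Syt1) were at 180 and 221 RPKM, against 296 to 337 in wild type, and the 1832 longest genes had a median log2 ratio to wild type of -0.32 and -0.12. All 4 neuronal markers had an unadjusted p below 0.05 and lower means in Tet CD, but 0 of the 4 were called. Summed fat body markers reached 54.2 RPKM in Tet CD replicate 2 and 34.0 in wild-type replicate 4, with 1.42 to 8.15 in the other libraries. Imaginal disc markers summed to 61.4 RPKM in Tet CD replicate 1 and to 31.9 to 40.9 elsewhere. Hemocyte markers summed to 11.7 to 20.4 RPKM in wild type and 16.8 to 27.2 in Tet CD, sums that Pxn (11.9 ± 1.64 and 10.9 ± 2.02 RPKM) mostly made up. The other hemocyte markers had higher means in Tet CD, among them eater (0.954 ± 1.09 and 4.90 ± 1.55 RPKM, log2 fold change 2.10, adjusted p 0.0176 by limma), Hml (1.09 ± 0.870 and 3.002 ± 0.801 RPKM, 1.25, adjusted p 0.0544) and NimC1 (0.0699 to 0.118 and 0.528 to 1.18 RPKM, below the filter), and groups did not overlap for eater and NimC1. Muscle markers summed to 8.23 to 14.0 and 11.0 to 17.1, glial markers to 212 to 231 and 200 to 253, and ring gland markers to 173 to 385 and 194 to 333. No marker list had a gene at 0 in every library, and none of the marker genes tested was called.

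Genes were called at an adjusted p below 0.01 (Benjamini-Hochberg, over the 9357 genes that averaged 0.5 RPKM or more) and a fold change above 1.2, from limma on log2(RPKM + 0.5). The added 0.5 shrinks the fold change of a gene with a low RPKM, such as Ilp1. By this rule 235 genes, 2.51% of those tested, were called in Tet CD, 109 higher and 126 (1.35%) lower. Ilp1, Ilp2, Ilp3, Ilp5, Ilp6, Ilp7 and chico passed the filter on low values, and Ilp4 and Ilp8 did not. Of the 7 that passed, 1 was called, Ilp1, which was lower in Tet CD. At an unadjusted p below 0.05 there were 2 of 7 (Ilp1 and Ilp3), against 28.3% of all genes tested. Groups did not overlap for 3 of 7 (Ilp1, Ilp3 and Ilp7), against 18.8% of all genes. The median log2 fold change of the 7 was -0.18, beside -0.0061 over all genes.

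**Figure D1:**
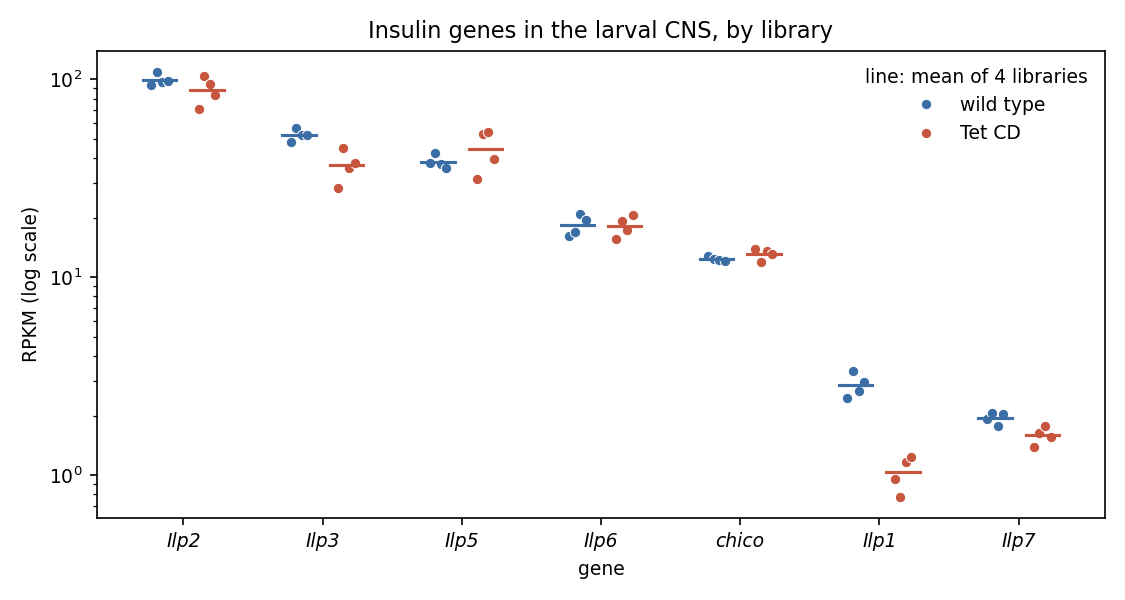
RPKM of the 7 insulin genes above the filter, on a log axis, in each of the 4 wild-type (blue) and 4 Tet CD (red) libraries, with a line at each group's mean. The groups are apart for Ilp1 (2.46 to 3.37 against 0.779 to 1.24) and Ilp3 (48.2 to 57.1 against 28.2 to 45.2), and for Ilp7 by only 1.78 against 1.77.

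Ilp2 had the highest level of the family in both groups. In wild type the order of RPKM was Ilp2, Ilp3, Ilp5, Ilp6, chico, Ilp1, Ilp7, and no pair of neighbours in it overlapped. In Tet CD the order was Ilp2, Ilp5, Ilp3, Ilp6, chico, Ilp7, Ilp1, where Ilp5 and Ilp3 overlapped and the other neighbours did not. The places of Ilp3 and Ilp5, and those of Ilp1 and Ilp7, were thus exchanged between the mean levels of the groups.

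Ilp1, a peptide of the insulin-producing cells best known from pupal and nonfeeding stages, was the insulin gene that passed the test. It was at 2.46, 3.37, 2.66 and 2.97 RPKM in wild-type replicates 1 to 4 and at 0.961, 0.779, 1.17 and 1.24 RPKM in Tet CD replicates 1 to 4. The lowest wild-type library was above the highest Tet CD library. The means were 2.87 ± 0.394 and 1.04 ± 0.208 RPKM (SD, n = 4), a ratio of 0.362 between Tet CD and wild type. The log2 fold change was -1.13 (SE 0.15) with an adjusted p of 0.0021 (limma), and its rank from the lowest among all genes tested was 99. The exact two-sided permutation test gave p = 0.0286, the smallest that 70 arrangements of 4 against 4 libraries allow.

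The levels of Ilp1 rest on few reads. The 4 wild-type libraries held 20, 51, 32 and 30 Ilp1 reads and the Tet CD libraries 8, 7, 10 and 11. Pooled over libraries, 133 reads in wild type and 36 in Tet CD gave a depth-corrected ratio of 0.353, with an exact 95% interval (from the binomial share of the reads, Clopper-Pearson) of 0.237 to 0.514 that covers counting error only. The adjusted p of Ilp1 was above 0.01 when certain libraries were left out. It was 0.0118 (limma) without wild-type replicate 2 and 0.0104 without wild-type replicate 4. Without the 2 Tet CD libraries low in long genes (replicates 2 and 3) it was 0.0151, and without Tet CD replicate 2 and wild-type replicate 4, in which fat body markers were high, 0.0168, both choices made after seeing the data. The log2 fold change without these libraries lay between -1.12 and -1.03.

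Ilp1 overlaps another gene. CG32052, a protein-coding gene on the same strand, spans Ilp1 to Ilp4, and one of its exons shares 258 bases with the 631 bases of the Ilp1 exon and 106 bases with its coding part. The shortest length at which the Ilp1 values are whole reads in all libraries is 465 bases, that of its coding part, and at 631 they are not whole, so the reads above were worked out with 465. CG32052 was at 3.30 ± 0.328 RPKM in wild type and 2.92 ± 0.466 in Tet CD, with a log2 fold change of -0.16 and an adjusted p of 0.442 (limma). How reads in the shared bases were assigned was not tested.

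Ilp2, the most abundant brain insulin, was at 93.5, 109, 96.8 and 98.6 RPKM in wild type and at 70.9, 105, 95.1 and 83.5 RPKM in Tet CD. The groups overlapped, with means of 99.5 ± 6.72 and 88.5 ± 14.6 RPKM (SD, n = 4). With a log2 fold change of -0.18 (SE 0.11) and an adjusted p of 0.317 (limma), Ilp2 was not called. The value was -0.079 without Tet CD replicate 1 and -0.37, with an adjusted p of 0.0504 (limma), without Tet CD replicates 2 and 3. With 851 to 2381 reads per library the depth did not limit this comparison, and the spread among the Tet CD libraries was wider than that among wild type.

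Ilp3, whose expression in the insulin-producing cells depends on feeding, was at 48.2, 57.1, 52.5 and 52.3 RPKM in wild type and at 28.2, 45.2, 35.8 and 37.9 RPKM in Tet CD. Every Tet CD library was below every wild-type library, at means of 52.5 ± 3.63 and 36.8 ± 7.01 RPKM (SD, n = 4), a ratio of 0.700. The log2 fold change was -0.53 (SE 0.12), with an unadjusted p of 0.00205 and an adjusted p of 0.0333 (limma), which misses the threshold of 0.01. The exact two-sided permutation p was 0.0286, the smallest possible. Leaving out 1 library at a time gave log2 fold changes of -0.63 to -0.41 and adjusted p of 0.0093 to 0.0948 (limma), and only the lowest of these, without Tet CD replicate 2, was past the threshold.

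Ilp5, the other nutrient-dependent peptide of these cells, was at 37.8, 42.6, 37.3 and 35.6 RPKM in wild type and at 31.4, 53.1, 54.4 and 39.4 RPKM in Tet CD. Tet CD libraries lay on both sides of the wild-type range, and the means were 38.3 ± 2.98 and 44.6 ± 11.1 RPKM (SD, n = 4). Ilp5 was not called, at a log2 fold change of 0.18 (SE 0.16) and an adjusted p of 0.485 (limma). Tet CD replicates 2 and 3, the libraries with low neuronal markers, were the highest of the 8, and without them the log2 fold change was -0.12.

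The spread among the Tet CD libraries was partly shared by the 3 abundant peptides. Tet CD replicate 1 was the lowest of the 8 libraries for Ilp2, Ilp3 and Ilp5, and it was the library with the highest disc markers. It was also the lowest for Ilp6 (15.6 RPKM) and Ilp7 (1.39 RPKM), which are made in other cells. Ilp1, made in the same cells, was lowest in Tet CD replicate 2 (0.779 RPKM). The summed level of Ilp2, Ilp3 and Ilp5 was 180, 209, 187 and 186 RPKM in wild type and 131, 203, 185 and 161 RPKM in Tet CD, with an exact two-sided permutation p of 0.229. Ratios within a library take out what moves these genes together. They were chosen after the values had been seen and are given as descriptions, without a test.

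The ratio of Ilp3 to Ilp2 was 0.516 to 0.542 in the wild-type libraries and 0.376 to 0.454 in Tet CD, means of 0.528 ± 0.0111 and 0.415 ± 0.0346 (SD, n = 4). The ratio of Ilp5 to Ilp2 was 0.361 to 0.405 in wild type and 0.443 to 0.572 in Tet CD, means of 0.385 ± 0.0179 and 0.499 ± 0.0558. Relative to Ilp2, then, every Tet CD library had less Ilp3 and more Ilp5 than every wild-type library. The ratio of Ilp3 to Ilp5 was accordingly 1.37 ± 0.0832 in wild type and 0.842 ± 0.131 in Tet CD. Of the summed RPKM of the 3 genes, Ilp2 made up 52.3% ± 0.417 and 52.3% ± 1.39, Ilp3 27.6% ± 0.599 and 21.7% ± 1.78, and Ilp5 20.1% ± 0.821 and 26.0% ± 2.40, in wild type and Tet CD respectively (SD, n = 4). The share of Ilp2 was alike in the means of both groups, while those of Ilp3 and Ilp5 did not overlap between groups. Ilp1 relative to Ilp2 was 0.0287 ± 0.00214 in wild type and 0.0120 ± 0.00322 in Tet CD, again without overlap, and relative to Ilp7 it was 1.47 ± 0.145 and 0.656 ± 0.133. These 5 ratios stayed apart when each library's trend over exon length was removed. They share genes and are not independent of each other. The share of all gene pairs whose ratios do not overlap was not worked out, and among single genes it was 18.8%.

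**Figure D2:**
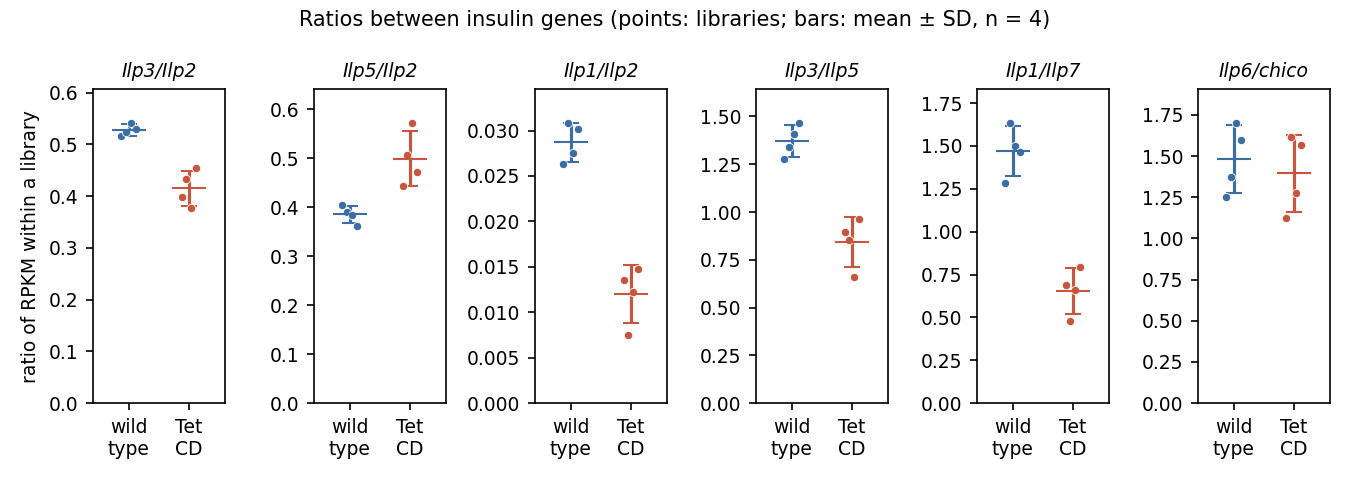
Ratios of RPKM between insulin genes within each library, with linear axes starting at 0, points for the 4 wild-type (blue) and 4 Tet CD (red) libraries and bars for mean ± SD. Ilp3/Ilp2, Ilp1/Ilp2, Ilp3/Ilp5 and Ilp1/Ilp7 are lower and Ilp5/Ilp2 is higher in every Tet CD library than in any wild-type library, while Ilp6/chico overlaps.

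Ilp6, the insulin-like peptide of fat body and glia, lies on the X chromosome (FBgn0044047, X 2331493 to 2334658, minus strand) inside an intron of Raf, which is on the other strand. It was at 16.1, 17.02, 20.9 and 19.4 RPKM in wild type and at 15.6, 19.2, 17.3 and 20.6 RPKM in Tet CD. The ranges overlapped almost in full, and the means were 18.4 ± 2.19 and 18.2 ± 2.18 RPKM (SD, n = 4). The log2 fold change was -0.01 (SE 0.11) with an adjusted p of 0.946 (limma). Tet CD replicate 2 and wild-type replicate 4, the libraries high in fat body markers, were at 19.2 and 19.4 RPKM, inside the range of the other libraries.

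Ilp7, made by a few neurons that include cells innervating the hindgut and the female reproductive tract of the adult, is on the X chromosome (FBgn0044046, X 3667621 to 3668845, plus strand), and an exon of it overlaps Parg on the other strand. It was at 1.92, 2.06, 1.78 and 2.03 RPKM in wild type and at 1.39, 1.64, 1.77 and 1.55 RPKM in Tet CD. The lowest wild-type library was just above the highest Tet CD library. The means were 1.95 ± 0.126 and 1.59 ± 0.158 RPKM (SD, n = 4), and the log2 fold change of -0.23 (SE 0.12) had an adjusted p of 0.241 (limma), so Ilp7 was not called. The exact two-sided permutation p was 0.0286, the smallest possible. Its 35 to 70 reads per wild-type library and 26 to 34 per Tet CD library gave a pooled ratio of 0.814. The exact 95% interval of this ratio, 0.645 to 1.02, covers counting error only and includes no change. Parg itself had a log2 fold change of -0.04 and an adjusted p of 0.722 (limma).

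Ilp4 and Ilp8 were at the limit of detection. Ilp4 had 1 read in wild-type replicates 2 and 3 and in Tet CD replicate 1 (0.0382, 0.0482 and 0.0695 RPKM) and 0 reads in the other 5 libraries. Ilp8 (FBgn0036690, 3L 17029812 to 17032080, minus strand, overlapping CG7730 and lncRNA:CR45756) had 1 read in wild-type replicate 4 and in Tet CD replicate 1 (0.0531 and 0.0644 RPKM) and 0 reads in the other 6. A count of 0 allows up to 3 reads, which correspond to 0.115 to 0.213 RPKM for Ilp4 and 0.106 to 0.198 RPKM for Ilp8 over the 8 libraries. No difference between groups was detectable for either gene at this depth. In Tet CD replicate 1, where disc markers were highest, Ilp8 was at this same single read.

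Chico, the adaptor through which the receptor reaches PI3 kinase, is encoded on chromosome 2L (FBgn0024248, 2L 10242512 to 10247078, minus strand), where it overlaps the antisense RNA gene asRNA:CR44995. It was at 12.9, 12.4, 12.3 and 12.2 RPKM in wild type and at 13.8, 11.9, 13.6 and 13.1 RPKM in Tet CD. The groups overlapped, at means of 12.4 ± 0.315 and 13.1 ± 0.859 RPKM (SD, n = 4). Its log2 fold change of 0.07 (SE 0.07) had an adjusted p of 0.504 (limma). Reads from overlapping genes on opposite strands cannot be told apart without a strand setting, which is not given in the sources used here.

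The other genes of the pathway were followed in lists of binding proteins, relaxin-like receptors and the PI3 kinase and TOR branches. Of 23 genes tested, 0 were called, 4 had an unadjusted p below 0.05 (1 higher and 3 lower in Tet CD, by limma), and the median log2 fold change was -0.02. These shares, 17.4% at an unadjusted p below 0.05 and 0 called, stand beside 28.3% and 2.51% of all genes. Pdk1, the kinase that activates Akt, was the lowest of the PI3 kinase branch, at 33.4 to 39.4 RPKM in wild type and 24.4 to 30.9 in Tet CD, which do not overlap. Its log2 fold change was -0.44 with an adjusted p of 0.0156 (limma). Conv, which with the binding protein ImpL2 holds insulin-like peptides in the circulation, was highest among the binding proteins, at 4.19 ± 0.558 and 6.81 ± 1.65 RPKM, a log2 fold change of 0.62 and an adjusted p of 0.0527 (limma). ImpL2 had a log2 fold change of 0.08, Sdr, a secreted decoy of the receptor, of 0.11, and foxo of 0.01. Akt1, the kinase downstream of Pdk1, had a log2 fold change of -0.27 with an adjusted p of 0.165, and step, a cytohesin of the same branch, one of 0.05. Thor (4E-BP), a target of FOXO and of TOR, was at 63.4 ± 23.6 and 82.6 ± 18.3 RPKM, a log2 fold change of 0.44 with an adjusted p of 0.335 (limma), the highest of the TOR branch, and Sin1, a subunit of TOR complex 2, was the lowest at -0.15. Lgr3, the receptor of Ilp8, had a log2 fold change of 0.11 and Lgr4 one of -0.36, with adjusted p of 0.659 and 0.213 (limma).

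**Figure D3:**
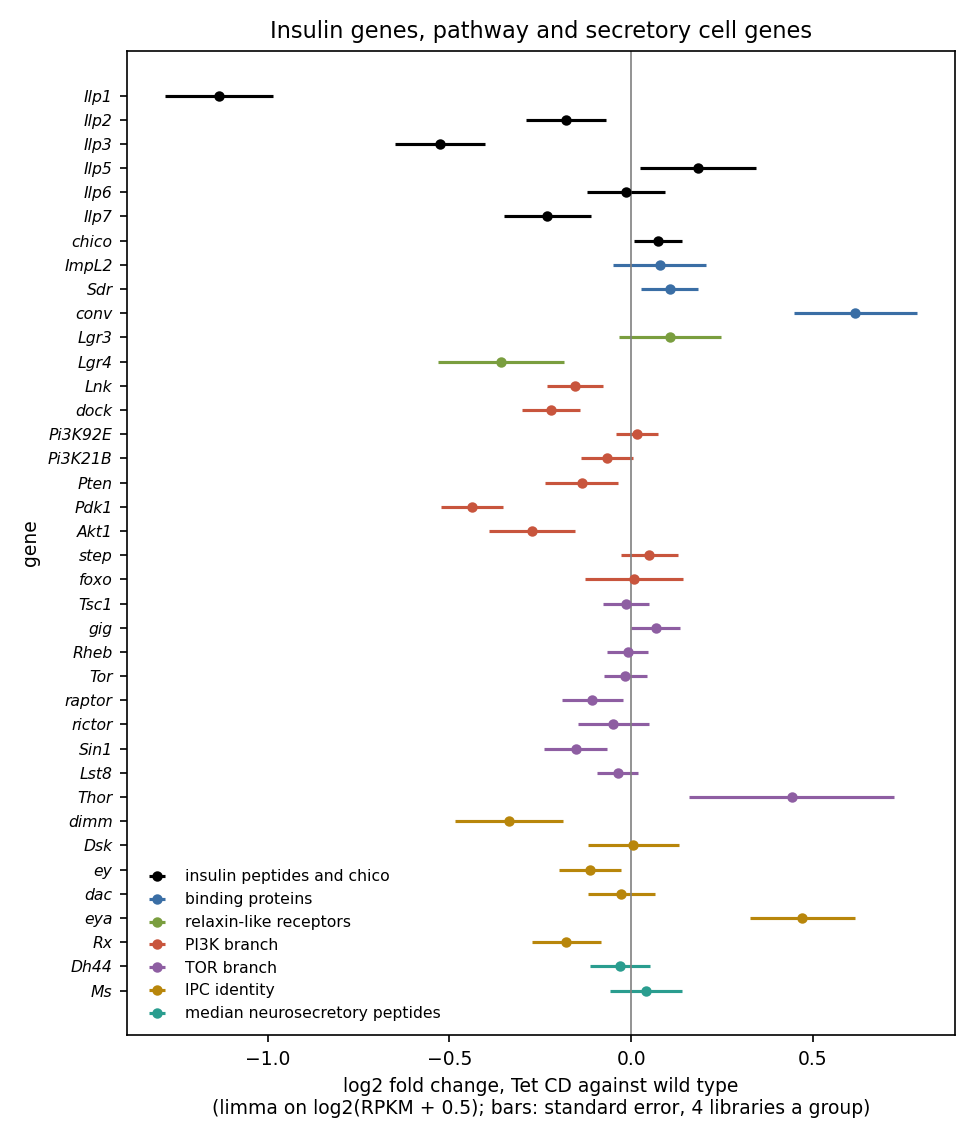
Log2 fold change in Tet CD against wild type with its standard error (limma, 4 libraries a group) for the insulin genes tested, the signalling lists and genes of insulin-producing and other median neurosecretory cells (IPC, insulin-producing cell). Ilp1 lies farthest from 0 at -1.13, and Pdk1 (-0.44) and conv (0.62) are the extremes of the signalling lists.

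Genes known from the insulin-producing cells and from peptide release were also listed. Of 26 tested, 0 were called, 10 had an unadjusted p below 0.05 (2 higher and 8 lower, by limma), and the median log2 fold change was -0.09. The share with an unadjusted p below 0.05 was thus 38.5% here, beside 28.3% of all genes. Dsk, the cholecystokinin-like peptide that the same cells release, was at 23.0 ± 2.51 RPKM in wild type and 23.2 ± 4.06 in Tet CD (SD, n = 4), a log2 fold change of 0.01 with an adjusted p of 0.984 (limma). Dh44 and Ms, peptides of neighbouring median neurosecretory cells, had log2 fold changes of -0.03 and 0.04. Dimm, the transcription factor of peptide-secreting cells, was at 1.47 ± 0.143 and 1.07 ± 0.191 RPKM, without overlap, with a log2 fold change of -0.34 and an adjusted p of 0.174 (limma). Eya, a transcription cofactor of these cells and of the eye field, had a log2 fold change of 0.47 with an adjusted p of 0.0731. Among receptors known from insulin-producing cells, the tachykinin receptor TkR99D was lowest (-0.39, adjusted p 0.0855) and the TNF receptor grnd highest (1.07, adjusted p 0.125). Of the peptide processing genes, IA-2, a dense core vesicle protein, was lowest at -0.54 (adjusted p 0.135) and the protease gene Fur2 highest at 0.10. The smallest adjusted p of that list were 0.0483 for Cadps (log2 fold change -0.39) and 0.0492 for amon (-0.24), by limma. Groups did not overlap for either gene, and neither was called. The neuronal markers described above also had lower means in Tet CD, summing to 180 to 292 RPKM, and their part in these values was not tested.

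The genes around the Ilp1 to Ilp5 cluster were compared to see whether its neighbours differed as well. Within 50 kb of the cluster, 11 of 12 neighbours were tested, 0 of the 11 were called, and 3 of the 11 had an unadjusted p below 0.05 (limma), beside 28.3% of all genes. Of the 11 tested, 10 had a log2 fold change below 0, and the median was -0.14, beside -0.0061 over all genes. The values ran from -0.47 for CG8177, with an adjusted p of 0.0361 (limma), to 0.16 for CG43897, whose intron holds Ilp5. The value for Ilp1, -1.13, lay below all of these.

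By Pearson correlation of log2(RPKM + 0.5) over the 8 libraries, which share the difference between groups, depth and marker content, the genes most like Ilp1 were phr6-4 (0.982), CG12182 (0.980) and lig3 (0.980). Those most like Ilp2 were CR18854 (0.984), CG9422 (0.982) and beta3GalTII (0.964), and those most like Ilp3 were CG13707 (0.983), Sec6 (0.983) and uzip (0.970). Ilp5 was most like Ms (0.969), CG34117 (0.962) and ppan (0.961), Ilp6 like MED17 (0.975), Src42A (0.972) and CG16953 (0.964), Ilp7 like CR43989 (0.967), Tsp42Ej (0.954) and Cct2 (0.951), and chico like CG7987 (0.976), ZnT33D (0.964) and Stat92E (0.961). An r of 0.95 or more was reached by 44 genes with Ilp1 and by 3 to 12 with each of the other insulin genes above the filter. In Tet CD, phr6-4, CG12182 and lig3 were lower as well, at log2 fold changes of -1.27, -0.49 and -0.79. Among the insulin genes themselves, r was 0.855 between Ilp2 and Ilp3, 0.585 between Ilp2 and Ilp5 and 0.104 between Ilp3 and Ilp5. Ilp2, Ilp3 and Ilp5 come from the same cells, and Ilp3 and Ilp5 had the weakest correlation of their 3 pairs. Ilp7, made by other neurons, had r of 0.860 with Ilp3, 0.843 with Ilp1, 0.793 with Ilp2 and 0.145 with Ilp5. A high r was thus not particular to genes of the same cells.

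**Figure D4:**
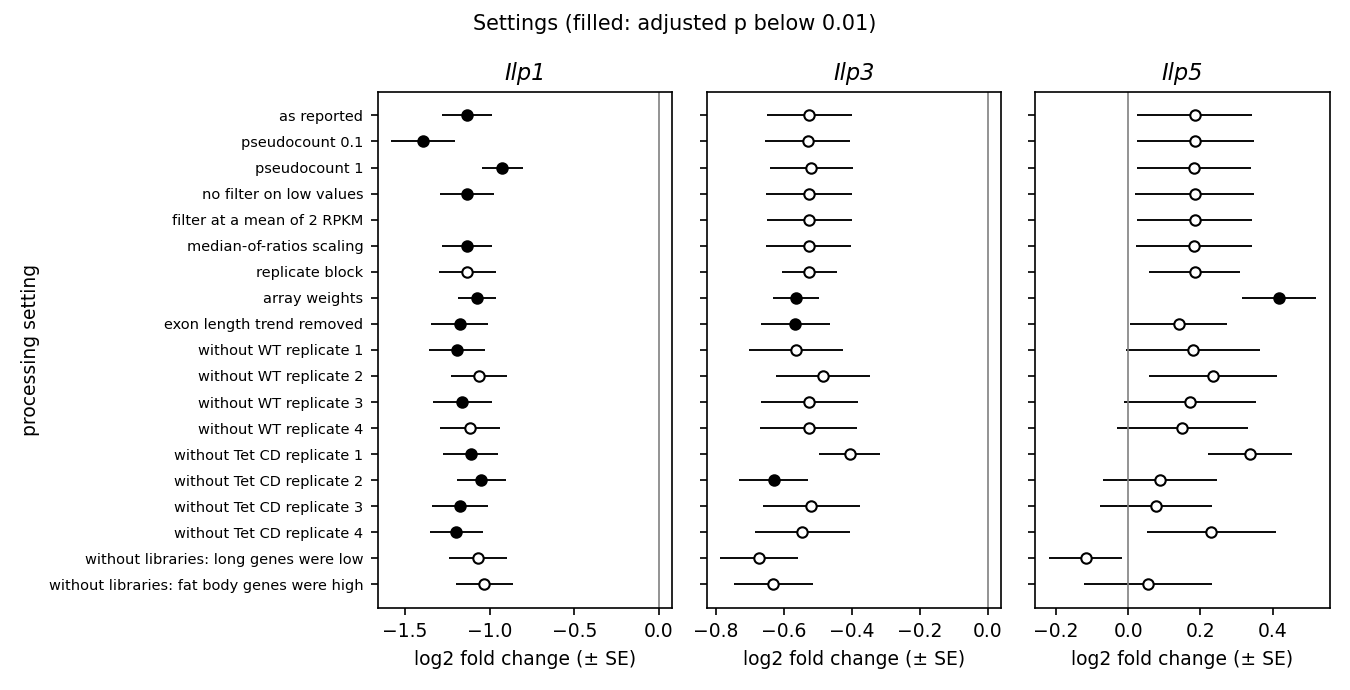
Log2 fold change (with standard error) of Ilp1, Ilp3 and Ilp5 in Tet CD against wild type under each processing setting, filled where the adjusted p is below 0.01; Ilp1 has no value at a filter of 2 RPKM. Ilp1 stays between -1.39 and -0.92 and Ilp3 between -0.67 and -0.41, while Ilp5 runs from -0.12 to 0.42 and so crosses 0.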

How the data were processed

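RNA was isolated from pooled larval brains. After adapter trimming (Cutadapt), the authors used Hisat2 for alignment to dm6 with the annotation of Ensembl release 70, HTSeq-Count for counting and Cufflinks for the deposited RPKM values, and they called genes with DESeq2 on counts not used here. The table has 1 column per library. Another 4 sample columns could be tied to no label and were not used, so the Tet null mutant, a deletion, was not analysed here, nor were ChIP-seq and CUT&RUN.

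Columns were matched to wild type and Tet CD by name. Library sizes were recovered from values under 0.3 RPKM, of which 97.6 to 98.1% were whole reads within 0.01, and the insulin genes' values were whole within 0.00358. Exon lengths and positions came from Ensembl release 115. log2(RPKM + 0.5) was compared with limma 3.58.1 in R 4.3.3 (lmFit, eBayes with trend) for genes averaging 0.5 RPKM or more, and single values with the two-sided exact permutation test. Figures were drawn with matplotlib 3.10.9, and other steps used scipy 1.17.1, pandas 2.3.3 and numpy 2.4.6 in Python 3.11.15. The fit was tested on simulated data. The RPKM values replaced counts as the base of the test, and the thresholds are those of the study.

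The insulin genes and all lists were chosen with earlier results of these data known. Named genes are all insulin genes found, the called genes and the highest and lowest of each pathway list, the 3 genes most like each insulin gene, and Tet. Akt1, foxo, ImpL2, Sdr, Thor, dimm, eya, Dsk, Dh44 and Ms, where they are not such extremes, were named after their values had been seen. The same holds for amon, Cadps and the neighbours of the cluster. S6k, Phm, Pal1, ap, susi and Lobe had no row of that symbol. Rows were found for 9 of 11 symbols listed in the PI3 kinase branch, 9 of 12 in the TOR branch and 8 of 11 for peptide processing. For receptors on insulin-producing cells 11 of 12 symbols had a row, and for imaginal discs 5 of 6. Alternatives were a pseudocount of 0.1 or 1, no filter or one at 2 RPKM, the replicate number as a block, scaling by median of ratios, array weights, removal of each library's trend over exon length, and leaving out each library. Leaving out libraries with low long genes or high fat body markers and an adjusted p below 0.05 were added after seeing the data.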

Additional observations from a re-analysis of the deposited data

Results flagged for a closer look

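Of 44 groups of 4 libraries checked, 5 had 1 library far from the other 3. A chance rate of about 1 in 20, or 2.2 groups, cannot be assumed for values of 0 or 1 read or for uneven marker sums. No conclusion is drawn from the number of groups flagged. For Ilp4 this was Tet CD replicate 1 at 0.0695 RPKM, with the other Tet CD libraries at 0. For Ilp8 it was wild-type replicate 4 at 0.0531 RPKM and Tet CD replicate 1 at 0.0644 RPKM, again with the others of the group at 0. Each of these values is 1 read. Summed fat body markers were at 54.2 RPKM in Tet CD replicate 2 and between 2.30 and 2.83 in the other Tet CD libraries. Summed imaginal disc markers were at 61.4 RPKM in Tet CD replicate 1 and between 37.4 and 39.0 in the others.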

How the results depend on the processing

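Ilp1 was lower in Tet CD in all 17 alternatives that tested it, at log2 fold changes of -1.39 to -0.92 and adjusted p of 0.000131 to 0.0177 (limma), and missed 0.01 in 5 of them. A filter at 2 RPKM removes Ilp1 and Ilp7. Ilp2 and chico in all 18 alternatives, and Ilp7 in the other 17, kept direction and side of the threshold. Ilp3 passed with array weights (-0.56, adjusted p 0.000268), with the exon length trend removed (-0.57, 0.00781) and without Tet CD replicate 2, and Ilp5 with array weights (0.42, 0.00894). The array weight of Tet CD replicate 3, a library with low neuronal markers, was 6.32. Those of Tet CD replicates 1, 2 and 4 were 0.318, 0.399 and 0.365. Results with array weights, also those over all genes, therefore rest mostly on replicate 3 for Tet CD. Ilp5 was at -0.12 without Tet CD replicates 2 and 3. Ilp6, at -0.014, ran from -0.075 to 0.055 when 1 library was left out, with 4 of the 8 values above 0 (0.049 and 0.014 for wild-type replicates 3 and 4, 0.055 and 0.0052 for those of Tet CD numbered 1 and 3). The causes were not tested.

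The insulin genes called were 1 as reported, 0 with a filter at 2 RPKM and without the libraries with low long genes or with high fat body markers, 2 with the length trend removed and at an adjusted p below 0.05, 3 with array weights, and 0 to 2 when 1 library was left out. Over all genes, 109 were called higher and 126 lower. Array weights gave 826 and 1024, an adjusted p below 0.05 gave 442 and 350, removal of the length trend 176 and 189, leaving out 1 library 51 to 203 and 70 to 203, leaving out the libraries with low long genes 42 and 88, and leaving out those with high fat body markers 61 and 84.

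With the replicate block 51 genes were called higher, 60 lower, and 0 insulin genes, Ilp1 being at -1.13 with an adjusted p of 0.0177. Same-numbered libraries had correlations of 0.236, -0.186, 0.040 and -0.105 in their deviations from the group means. These values cannot show whether libraries of the same number shared a batch, so pairing was not settled. With the block the SE was smaller for Ilp2, Ilp3, Ilp5 and Ilp6 and larger for Ilp1, Ilp7 and chico. That of Ilp3 went from 0.12 to 0.080, with an adjusted p of 0.0194 (limma), and that of Ilp1 from 0.15 to 0.17. The few reads of Ilp1 and Ilp7, and the single reads of Ilp4 and Ilp8, limit what these libraries can show of them.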
